A study of Mus musculus with 39 samples.

Results

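The comparison set 9V/null mice against 4L mice at 4 weeks of age, in lung and in liver. It used 8 of the 39 arrays of the series, 2 for each line and tissue, taken by the age and genotype in their labels. The 9V/null mice carry the 9V allele over a null allele, and the 4L mice are homozygous for another mutant allele, so the controls here are a second mutant line and not healthy mice. All of these mice were untreated. Per the study's methods each array received RNA pooled from 3 mice of the same age and genotype, 4L mice are of mixed C57BL/6J-129SvEvBrd background, and 9V/null mice hold FVB in addition. Every difference between the lines is therefore also a difference between strain backgrounds, and the mutation and the strain cannot be told apart. The wild-type (WT) arrays, from mice with the background mixture of 9V/null, are all from 28 weeks (4 lung, 3 liver) and are given as values with no test. The other 24 arrays of the mutant lines, from 12, 18 and 28 weeks, were compared in the same way. They share no array with the 4-week groups, but the fit over 39 arrays used below takes most of its spread from them, so the calls at the 2 times are not independent. Whether the lung and liver RNA came from the same mice is not given in the sources used here, and the p-values measure only the spread between these arrays.

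Both lines are mouse models of Gaucher disease, a lysosomal storage disorder in which a sphingolipid collects above all in macrophages, which swell into storage cells in liver, spleen, lung and bone marrow. Type I interferons switch on antiviral genes in nearly every cell type, and the circadian clock drives a daily rise and fall of its own genes in lung and liver. Both gene groups come up below because the lines differed in them at 4 weeks.

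Expression was read on Affymetrix Mouse Genome 430 2.0 arrays as a linear signal per probe set, and differences are log2(9V/null) minus log2(4L) after signals under 16 were set to 16. Some arrays stood apart. The lung array of 9V/null replicate 2 held heart or skeletal muscle RNA. Its 18 measured muscle genes summed to a signal of 895210, against 130930 to 178770 in the other 3 lungs, and Myl2, a ventricular myosin light chain, was at 71515 against 15.1 to 69.5. The 20 hepatocyte genes summed to between 9094 and 94965 in the lungs. Sex-linked transcripts also differed between the pools. Eif2s3y, a Y-linked gene, was at 30.8 and 21.9 in lung and liver of 9V/null replicate 1, at 1241 and 1093 in replicate 2, and at 563.7 to 3130 in the 4L arrays, and Hsd3b5, a male-biased liver gene, was at 1320 and 14140 in the 9V/null livers. The part of muscle RNA and sex in the results was not tested beyond leaving each array out. Replicates correlated with Spearman correlation coefficients of 0.872 to 0.939, and arrays of different lines in one tissue with 0.861 to 0.920.

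Across both tissues, with tissue as a block, limma called 0 of 45037 probe sets at a false discovery rate (FDR) of at most 0.01 and at least 1.8-fold, the study's thresholds, over the 8 arrays alone. The smallest adjusted p was 0.0189, and 5367 probe sets had an unadjusted p under 0.05 (1966 higher and 3401 lower in 9V/null). At an FDR of 0.05 there were 12 probe sets, 0.0266% of those tested, 4 higher and 8 lower. They included 2 probe sets of Adi1 (−5.77 and −3.11), that of Syt10 (−3.38) and 1 of Them5, a mitochondrial acyl-CoA thioesterase (−3.31, with −1.06 in the leading probe set of the gene). Within lung, within liver and for the difference between them the 8 arrays gave 0 calls as well, with 3770, 4335 and 2757 probe sets at an unadjusted p under 0.05.

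The same differences were then tested against the spread of all 39 arrays, fitted as 18 group means. This leaves each difference as it was and raises the residual degrees of freedom from 5 to 21, on the assumption that the 4-week arrays vary like the others. With it, 286 probe sets (0.635%) were called across both tissues, 60 (0.133%) in lung and 150 (0.333%) in liver. These calls are what "called" means at 4 weeks in the rest of the text. Of the 286, 283 had an unadjusted p under 0.05 in the 8 arrays alone and 269 had no overlap between the lines in either tissue. Over all 45037 probe sets these numbers were 5367 and 5818. The choice of the 286 by the same 4-week differences largely fixes both of their counts. Without the WT arrays 126 (0.280%) were called, of which 117 were among the 286. The direction was uneven, with 76 higher and 210 lower in 9V/null, or 26.6% higher. That share rose to 41.6% when each array was centred on its median and to 37.5% after quantile normalization. Leaving out a single 4-week array moved the count to between 107 (without 4L lung replicate 2) and 359 (without 9V/null liver replicate 1), and it was 133 without 4L lung replicate 1, 125 without 4L liver replicate 1 and 312 without the muscle-bearing 9V/null lung replicate 2. The 60 calls in lung became 23 and 20 without 4L lung replicates 1 and 2 and 103 without 9V/null lung replicate 2. The 150 in liver became 52 without 4L liver replicate 1 and 273 without 9V/null liver replicate 1. Taking each gene by its brightest probe set on average, 92 genes were called, 25 higher and 67 lower. In the 12 to 28 week arrays 124 probe sets (0.275%) were called, 71 higher and 53 lower.

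A small set of genes differed in the same direction at 4 weeks and over the pooled later ages. Of the 286 probe sets, 35 were also called at 12 to 28 weeks in the same direction and 0 in the opposite one, which is 12.2% of the 4-week calls and 28.2% of the 124 later ones. For the 286 the median size was 1.54 at 4 weeks and 0.20 in the same direction later, and 193 of them (67.5%) kept their sign against 52.7% of all probe sets. In 13 genes the leading probe set was called at both times, 7 higher and 6 lower in 9V/null.

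Gdpd3, which encodes a lysophospholipase D, had signals of 8873 and 9238 in 9V/null lung against 248.3 and 434.8 in 4L lung, and of 4281 and 2117 against 57.4 and 201 in liver. The lines lay far apart in both tissues, and the difference was 4.80 ± 0.32 (SE), or 27.8-fold (limma adjusted p = 9.06e-09). At 12 to 28 weeks the difference of Gdpd3 was 5.41, and WT lung ranged from 8391 to 9206. Tmem87a, a transmembrane protein of the Golgi, was at 3316 and 2821 in 9V/null lung against 416.8 and 73.1, and at 982.2 and 1063 against 79 and 121.7 in liver. It was higher in 9V/null by 3.76 ± 0.44 at 4 weeks (adjusted p = 3.17e-05) and by 3.57 later.

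Pik3ap1, an adaptor that links receptors to phosphoinositide 3-kinase in B cells and macrophages, reached 4709 and 3845 in 9V/null lung against 924.6 and 811.4 in 4L lung. In liver Pik3ap1 was at 10039 and 10736 against 1016 and 2163, and the 2 tissues together gave 2.55 ± 0.20 (adjusted p = 1.97e-07) and 2.69 later. Ifi202b, an interferon-activated member of the p200 family, was at 312.3 and 327.4 against 11.3 and 5.9 in lung and at 282.4 and 163.4 against 17 and 86.5 in liver. It was higher in 9V/null by 3.40 ± 0.58 (adjusted p = 0.00209), and by 3.60 later. Both 4L lung values of Ifi202b lay under the floor of 16, and with a floor of 64 the difference was 1.93 and not called. The other 3 genes higher at both times were Hddc3, a metal-dependent phosphohydrolase (2.02, later 1.90), AI506816 (1.51, later 1.42) and Cap1, an actin regulator (1.12, later 1.79). The other probe set of Hddc3 gave −0.29 at 4 weeks.

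Adi1, the acireductone dioxygenase of the methionine salvage pathway, ran the other way. Its signals were 137.2 and 82 in 9V/null lung against 4160 and 4826 in 4L lung, and 243.4 and 432.4 against 19945 and 26572 in liver. The gene differed by −5.77 ± 0.54 on the log2 scale, or 54.8-fold (adjusted p = 1.25e-06), and had the smallest adjusted p in the 8 arrays alone. At 12 to 28 weeks the Adi1 difference was −4.30, although 1 4L liver array at 12 weeks read only 783.2 beside 18306 in its replicate. Cyp2c37, a cytochrome P450 of liver, was at 2688 and 657.3 in 9V/null liver against 40903 and 43755, and differed by −3.50 ± 0.67 over both tissues (adjusted p = 0.00568) and by −3.34 later. Its family members are close in sequence, so the probe set may share signal among them. The remaining genes lower at both times were Rabl2, a small GTPase of cilia (−1.42, later −1.38), Gstm6, a glutathione transferase (−1.40, later −1.08), Sparcl1, a matricellular protein (−1.29, later −0.95), and Ndufs5, a subunit of respiratory complex I (−1.19, later −1.36).

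Of these 13 genes, Gdpd3, Tmem87a, Pik3ap1, Hddc3, AI506816, Adi1 and Rabl2 stayed called at 4 weeks with any 1 of the 8 arrays left out. Ifi202b lost its call without either 4L lung array or without 4L liver replicate 1, and Ndufs5, Cyp2c37, Cap1, Gstm6 and Sparcl1 lost theirs in 5, 6, 7, 7 and 7 of the 8 cases. Of the 13, 10 had no overlap between the lines in any of the 6 later pairings of tissue and age, and Cyp2c37, Gstm6 and Sparcl1 had none in 5. The choice of the 13 by calls in these same later arrays largely fixes that. In 9 of the 13 the 9V/null arrays at 4 weeks were nearer to the WT level than the 4L arrays were in both tissues, and in 1 the 4L arrays were. Among the 79 called genes that did not pass later these numbers were 23 and 33, and over all genes they were 27.3% and 26.1%, with WT at 28 weeks in each case.

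**Figure D1:**
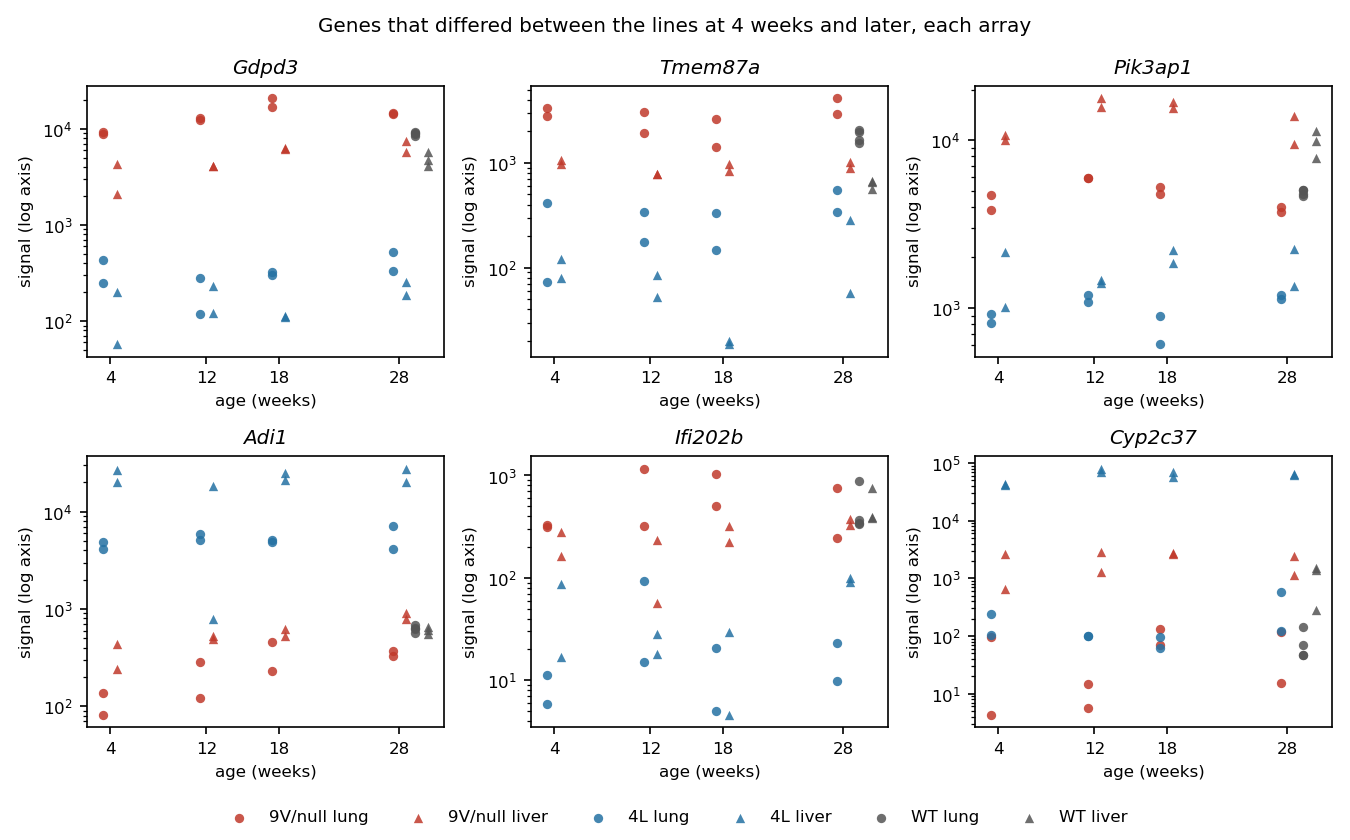
Signal (log axis) by age in weeks for Gdpd3, Tmem87a, Pik3ap1, Adi1, Ifi202b and Cyp2c37, with 1 point per array, circles for lung, triangles for liver, and the WT arrays of 28 weeks drawn beside the mutant arrays of that age. The lines keep the order of 4 weeks at the later ages except for Cyp2c37 in lung at 18 weeks, where they overlap, with Gdpd3 between 2117 and 9238 in 9V/null at 4 weeks and between 57.4 and 434.8 in 4L.

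Some of the lasting differences rested on a single probe set of a gene. The 35 probe sets called at both times included 29 with 1 symbol, from 26 genes. For 20 of them the gene had another probe set, which was also called in the same direction in 8 and had no unadjusted p under 0.05 in that direction in 10. Galc, the lysosomal galactosylceramidase, shows the split. One of its probe sets was at 102.6 and 71.2 in 9V/null lung against 1532 and 1815, and at 167.5 and 209 against 419.3 and 360.3 in liver, a difference of −2.67 at 4 weeks and −2.80 later, while its leading probe set gave 0.02. Psmd6, a proteasome subunit, differed by 3.55 in one probe set and by 0.13 in the leading one. Arhgap26, a GTPase-activating protein, differed by −3.96 and 0.19 in the same way. For these 3 genes the array gives no single direction of expression.

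**Figure D2:**
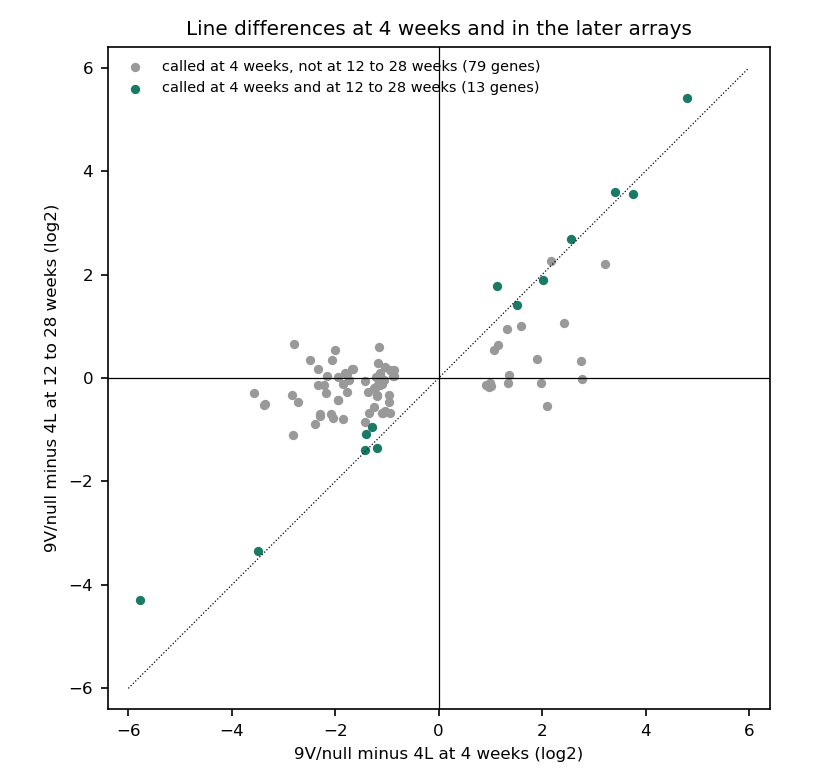
Line difference (9V/null minus 4L, log2) at 4 weeks on the horizontal axis and at 12 to 28 weeks on the vertical axis for the 92 genes called at 4 weeks, 1 point per gene. The 13 genes called at both times lie near equal values, and most of the other 79 lie near 0 on the vertical axis.

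Of the 92 genes called at 4 weeks, 79 were not called later. A direct test of the change of the line difference between 4 weeks and 12 to 28 weeks, over the 32 mutant arrays, called 29 probe sets (0.0644%), 6 in lung alone (0.0133%) and 17 in liver alone (0.0377%). The 29 became 64 without 9V/null liver replicate 1, 9 and 19 without 4L lung replicates 2 and 1, and 15 and 18 without 4L liver replicates 1 and 2. The 6 of lung became 26 and 10 without 9V/null lung replicates 1 and 2 and 2 without either 4L lung array, and the 17 of liver became 99 and 37 without 9V/null liver replicates 1 and 2 and 9 without 4L liver replicate 1. Among the 286 probe sets 17 had such a change, all of them toward 0, a direction that their choice by the 4-week difference largely fixes. H2-Q2, a class Ib major histocompatibility gene, was at 132.3 and 48.6 in 9V/null lung against 387.7 and 333.1, and at 3.3 and 3.4 against 172 and 173.5 in liver. It differed by −2.80 ± 0.32 (adjusted p = 2.73e-05), stood at 0.65 later, and changed by 3.45 (adjusted p = 4.95e-04). Both 9V/null livers lay under the floor of 16, and the difference of H2-Q2 was −3.93 with a floor of 1 and −1.70 with a floor of 64, called with each. Genes of this family share sequence, so the signal cannot be given to H2-Q2 with certainty. Zbtb16, which encodes the transcription factor PLZF, was at 1579 and 1504 in 9V/null lung against 6428 and 8119 in 4L lung, and at 1142 and 818.1 against 2554 and 4338 in liver. Its difference was −2.01 ± 0.28 at 4 weeks (adjusted p = 3.05e-04) and 0.54 later, a change of 2.54 (adjusted p = 0.00301).

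Other called genes had differences at 4 weeks whose change with age did not pass the test. Syt10, a synaptotagmin, was at 12.2 to 28.8 in all 4 9V/null arrays and at 148.5 to 260 in all 4 4L arrays (−3.38 ± 0.50, adjusted p = 4.86e-04), with a later difference of −0.52 and an adjusted p of 0.0501 for the change. Kcnk12, a potassium channel (−3.56), Hsd17b3, a testosterone-forming dehydrogenase (−3.36), Spink5, a serine protease inhibitor (−2.81), and H2bc22, a histone H2B gene (−2.84), were lower in 9V/null at low signal. Several 9V/null values of these genes lay at or under the floor of 16, so their differences depend on it. Higher in 9V/null at 4 weeks were Col11a1, a fibrillar collagen (2.77, later −0.03), Pkmyt1, a kinase that holds back mitosis (2.09, later −0.53), and Notch1, a receptor of cell fate decisions. The other probe set of Pkmyt1 gave −0.32 at 4 weeks. With each of the 8 arrays left out in turn, Syt10 and Hsd17b3 stayed called, while Spink5, Col11a1, Kcnk12, H2bc22 and Pkmyt1 lost the call in 2, 4, 7, 7 and 8 of the 8 cases. Notch1 was at 14166 and 11299 against 4026 and 3387 in lung and at 4549 and 2699 against 1664 and 2085 in liver, a difference of 1.34 ± 0.25 (adjusted p = 0.00457) that stood at −0.10 later. Notch1 was chosen after its values were seen, and its call was lost in 5 of the 8 cases.

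The line difference could also depend on the tissue. A test of lung minus liver called 7 probe sets (0.0155%) over the 39 arrays and 0 over the 8. Ear3, an eosinophil-associated ribonuclease, was at 21702 and 22146 in 9V/null lung against 2391 and 2567 in 4L lung, and at 109.3 and 107.3 against 346.3 and 230.2 in liver. The differences were 3.15 and −1.38, and differed from each other by 4.53 (adjusted p = 2.43e-04). Its relative Ang3, an angiogenin, was at 1576 and 1398 against 54.3 and 9.4 in lung (5.65, adjusted p = 6.00e-04) and at 165.9 and 139.5 against 69.4 and 114.8 in liver. The 4L lung value of 9.4 lay under the floor of 16. Lung minus liver was 4.89 for Ang3 and not called, while its difference over both tissues was (3.21). Ear3 and Ang3 belong to a family of near-identical genes, so which member was measured is uncertain.

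Gstp3, a glutathione transferase, showed the reverse. It was at 119610 and 109980 in 9V/null liver against 8239 and 5092 in 4L liver, and at 1027 and 1852 against 1099 and 1293 in lung. The liver difference of 4.15 (adjusted p = 5.29e-07) exceeded that of lung (−3.94 as lung minus liver, adjusted p = 3.44e-04). Cyp2c39, another cytochrome P450, was at 54312 and 38322 against 135.7 and 490.1 in liver, a difference of 7.47 (adjusted p = 9.26e-04), opposite in sign to Cyp2c37. Lung minus liver was −8.82 for Cyp2c39 and not called. Cyp2c39 in WT liver ranged from 4939 to 44324.

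Bco2, which cleaves carotenoids in mitochondria, was at 14.6 and 10.9 in 9V/null lung against 255 and 186.4 in 4L lung, and at 1850 and 1646 against 2714 and 2828 in liver. The Bco2 difference in lung was −3.77 (adjusted p = 4.75e-07), that in liver −0.67, and the 2 differed (−3.10 as lung minus liver, adjusted p = 0.00232). Both 9V/null lung values lay under the floor, and with floors of 1 and 64 the Bco2 difference in lung was −4.11 and −1.77, both called, and that of lung minus liver −3.44 and −1.10, the latter not called. By 12 to 28 weeks it had changed in lung by 3.72 (adjusted p = 1.70e-04). Cd300c2, an activating receptor of myeloid cells, was at 62 and 76.3 in 9V/null liver against 1080 and 699.5, and at 983 and 1202 against 1328 and 1258 in lung. Its liver difference was −3.66 (adjusted p = 3.14e-06), 3.41 below that of lung (adjusted p = 0.00232), and changed by 3.21 with age (adjusted p = 0.00158). Fam47e differed by −2.20 in lung and by 1.83 in liver, and Pramel13 was at 10.2 and 4.2 against 141.6 and 103.4 in lung.

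**Figure D3:**
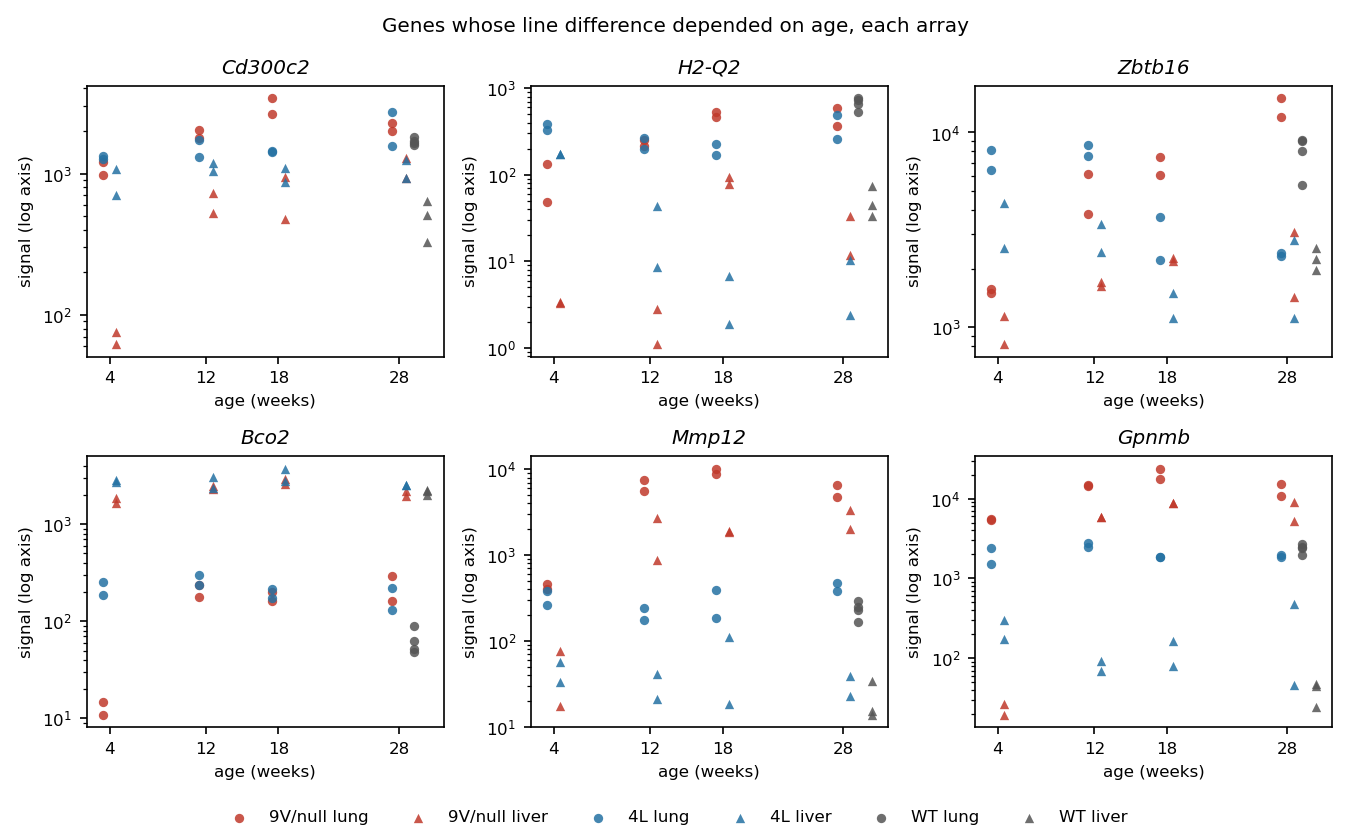
Signal (log axis) by age in weeks for Cd300c2, H2-Q2, Zbtb16, Bco2, Mmp12 and Gpnmb, with 1 point per array, circles for lung, triangles for liver and WT arrays beside 28 weeks. The 9V/null liver arrays of Cd300c2 at 62 and 76.3 and the 9V/null lung arrays of Bco2 at 14.6 and 10.9 stand alone at 4 weeks, while the 9V/null arrays of Mmp12 and Gpnmb lie far above the 4L arrays of the same tissue at every later age.

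Many interferon response genes lay lower in 9V/null than in 4L mice at 4 weeks, without any of the list being called. The list holds 28 measured members. Of these, 17 had an unadjusted p under 0.05 and were lower and 0 were higher, where 7.83% of all 18193 genes were lower and 3.30% higher by the same measure. The median difference of the list was −0.76 against −0.10 for all genes, and 15 members were lower with no overlap between the lines in either tissue, against 9.16% of all genes (5.13% had no overlap and were higher). Leaving out each array in turn gave 14 to 17 members, and it was 17 without the muscle-bearing 9V/null lung replicate 2. None of the 28 was called in the fit over 39 arrays. Members of this and the following lists were chosen for naming after their values were seen. Beside an adjusted p the standard error is that of the fit over 39 arrays, and otherwise that of the 8 arrays.

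Promoters of several of these genes carry the interferon-stimulated response element, the sequence bound by a transcription factor complex that interferon activates. The motif was searched as GAAA, a gap of any 2 bases and GAAA again, on either strand, in the 250 bases before the start of each gene in RefSeq promoters (GRCm38.p6). It was found in 11 of the 20 list members with a promoter, in 9 of the 13 with an unadjusted p under 0.05 and in 2 of the 7 others. Of all 27025 gene symbols with a promoter 3.46% had it, each counted if any of its promoters did. The stretches below, each read 5′ to 3′ on the strand of the gene, show it for 4 members, with the motif in capitals. A match describes the letters in this window and not a bound site.
Ifit3, chr19:34583382-34583441, plus strand: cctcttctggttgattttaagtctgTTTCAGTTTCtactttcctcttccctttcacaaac
Ifit1, chr19:34640779-34640838, plus strand: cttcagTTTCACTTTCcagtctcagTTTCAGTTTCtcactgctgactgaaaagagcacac
Gbp3, chr3:142559980-142560039, plus strand: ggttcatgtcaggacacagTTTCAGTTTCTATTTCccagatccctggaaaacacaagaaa
Oas1a, chr5:120907526-120907585, minus strand: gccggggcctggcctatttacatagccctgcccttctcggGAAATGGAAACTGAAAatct

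Ifit3, an antiviral tetratricopeptide protein, was at 2992 and 3823 in 9V/null lung against 8459 and 6686 in 4L lung, and at 1808 and 1196 against 4218 and 3960 in liver, a difference of −1.31 ± 0.24. Ifit1, which binds viral RNA caps and stands next to it on the chromosome, differed by −1.25 ± 0.23, with 1282 and 1370 against 3171 and 2572 in lung. Both lines kept apart in both tissues for these genes. Oas1a, a sensor of double-stranded RNA, differed by −1.25 ± 0.29, from 1309 and 1711 against 2685 and 3002 in lung and from 1613 and 931.9 against 3204 and 4136 in liver. Gbp3, a guanylate-binding protein, was at 1840 and 1893 against 3715 and 3702 in lung and differed by −1.14 ± 0.25.

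The transcription factor that amplifies the response, Irf7, was at 1208 and 1577 in 9V/null lung against 2659 and 2781, and at 2642 and 1729 against 5367 and 5193 in liver (−1.14 ± 0.24). Zbp1, a nucleic acid sensor (−1.37), Cxcl10, a chemokine (−1.10), and Usp18, a brake on interferon signalling (−1.05), lay on the same side. Exceptions were Irf1 (−0.07), Iigp1 (−0.24), Stat2 (0.37) and Cxcl9, at 60.1 and 158.3 against 27.1 and 35.4 in lung. The 2 probe sets of Cxcl9 had opposite signs over both tissues, at −2.95 and 0.42. In the 28-week WT arrays Irf7 ranged from 896.7 to 7316 in lung and from 1174 to 10876 in liver, wider than the gap between the lines. At 12 to 28 weeks the list's median was −0.25, and 0 members were called. By tissue that later median was 0.15 in lung and −0.72 in liver, against −0.78 and −0.92 in the early arrays. The lower level of the list in 9V/null was thus seen later in liver but not in lung. Whether the list medians changed with age was not tested. Cmpk2, an interferon-induced mitochondrial nucleotide kinase outside the list, was called, with 1032 and 774.2 against 3989 and 4295 in lung and 510.7 and 518.1 against 3467 and 2035 in liver (−2.29 ± 0.44, adjusted p = 0.00589). It was chosen after its values were seen, and the call of Cmpk2 was lost in 7 of the 8 cases with 1 array left out. Ifi202b, also outside the list and called, lay on the other side, higher in 9V/null by 3.40.

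**Figure D4:**
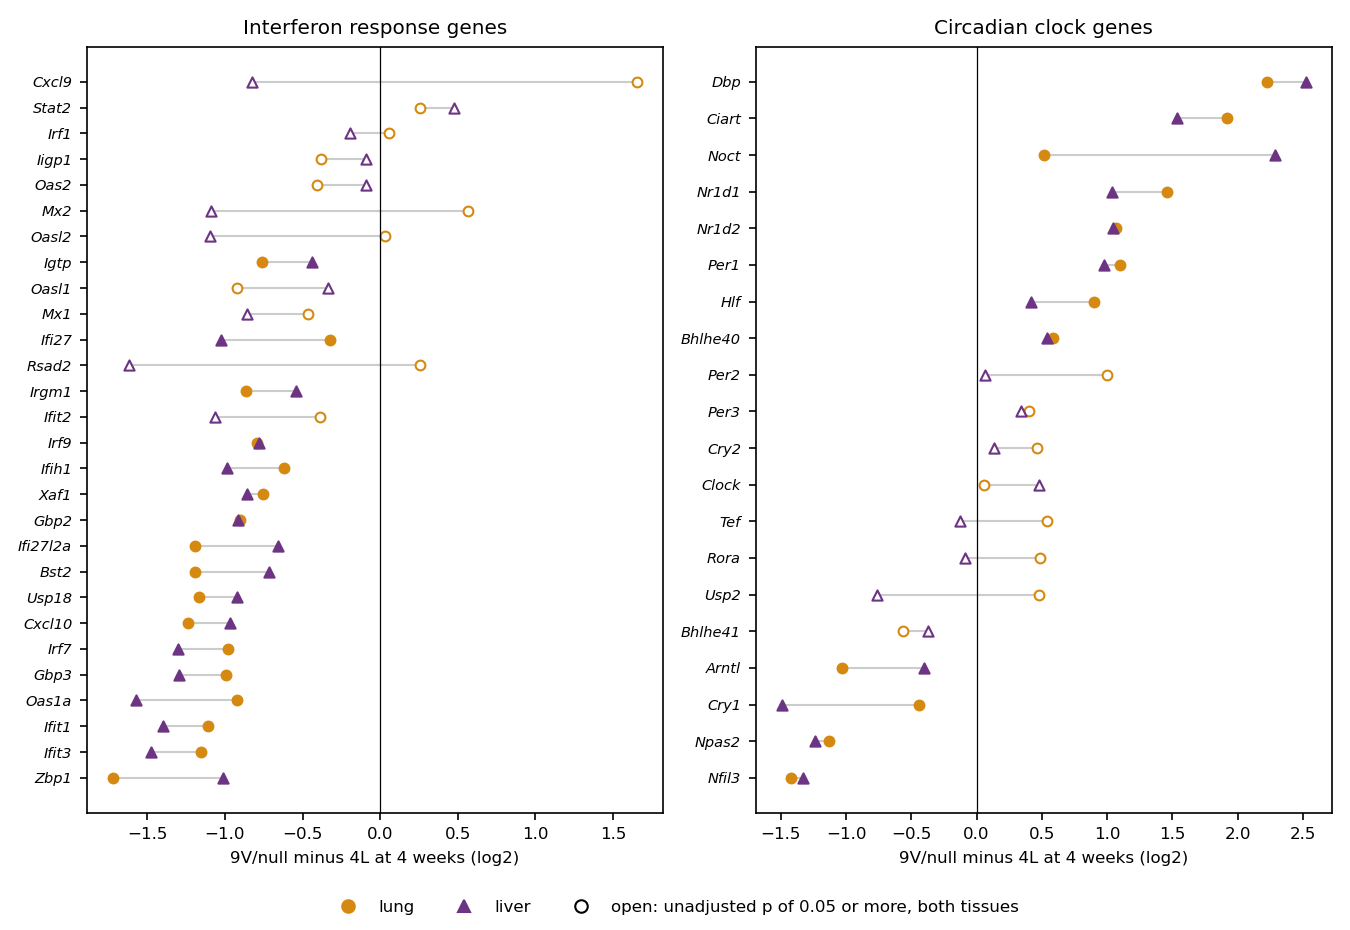
Line difference at 4 weeks (9V/null minus 4L, log2) in lung (circles) and liver (triangles) for each measured member of the interferon response list and of the circadian clock list, with filled symbols where the unadjusted p over both tissues was under 0.05. The filled interferon genes all lie below 0, and the clock genes spread from Dbp above 2 to Nfil3 below −1.

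Some antigen presentation genes were lower in 9V/null as well. In the class II list 6 of 12 measured members were lower at an unadjusted p under 0.05, against 7.83% of all genes, and 0 were higher. H2-Eb1, a class II beta chain, was at 7273 and 10570 in 9V/null lung against 26897 and 24403, and at 1088 and 1089 against 4675 and 5095 in liver. It was called at −1.86 ± 0.17 (adjusted p = 9.40e-07), and stood at −0.79 later. H2-DMb2, a chain of the peptide-loading factor, was called at −1.14 ± 0.22 (adjusted p = 0.00699) with 0.10 later, a call lost in 6 of the 8 cases with 1 array left out. H2-Ab1 differed by −0.78, and H2-Aa by −0.13 in its leading probe set but by −1.42 in another that was called. These genes are polymorphic between mouse strains. In the class I list 7 of 15 members were lower, among them H2-Q2 and the immunoproteasome genes Psmb8 (−0.77), Psmb9 (−0.58) and Psmb10 (−0.58). Centring the arrays left 4 class II members and 2 class I members under that p.

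Markers of some immune cells lay lower too, and those of others did not. Of 19 measured markers of macrophages of all tissues 6 were lower (Ctss, Cd14, C1qa, Fcer1g, C1qb and C1qc, with Cd14 at −0.82 and C1qc at −0.60) and 0 were higher, but 2 after centring and between 2 and 7 when an array was left out (2 without 4L lung replicate 1 or without 9V/null lung replicate 1, 3 without 4L lung replicate 2 or without 4L liver replicate 2). Of 9 Kupffer cell markers 3 were lower and of 18 T and NK cell markers 4, among them Gzma, a granule protease (−1.37), where 7.83% of all genes were lower. After centring these were 1 and 2. Of 12 neutrophil markers 0 passed (median 0.25), of 9 alveolar macrophage markers 1 was lower, of 16 B and plasma cell markers 2 were lower and 1 higher, and of 8 markers of immature thymocytes 1 was lower. In whole tissue, fewer cells of a type and less RNA per cell cannot be told apart. The part of such cells in the interferon and class II differences was not tested.

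Clock genes lay on both sides. Of 20 measured members 8 were higher in 9V/null at an unadjusted p under 0.05 and 4 lower, against 3.30% and 7.83% of all genes. In either fit 0 were called. Dbp, a clock output factor, was at 5493 and 6166 in 9V/null lung against 1011 and 1540 in 4L lung, and at 2948 and 4200 against 718.5 and 522.9 in liver, a difference of 2.37 ± 0.26 over the 8 arrays. Nr1d1, the repressor Rev-erb alpha, was at 4905 and 4382 against 1598 and 1787 in lung and at 4011 and 2666 against 1212 and 2095 in liver (1.25 ± 0.28). Per1, a core repressor of the clock, was at 5396 and 5761 against 2623 and 2584 in lung and at 1240 and 1738 against 873.2 and 639.9 in liver (1.04 ± 0.22). All 3 were higher with no overlap between the lines in either tissue, as were 5.13% of all genes.

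Ciart (1.73), Noct (1.40), Nr1d2 (1.06), Hlf (0.66) and Bhlhe40 (0.57) were the other higher members. On the lower side stood Nfil3, a repressor of the genes that Dbp activates, at 331.4 and 934 against 1373 and 1622 in lung and 3279 and 2913 against 7765 and 7742 in liver (−1.38 ± 0.34). Npas2 (−1.18) and Arntl (−0.72), partners in the activating complex, and Cry1 (−0.97) were also lower. The other probe set of Arntl gave 0.39. Leaving out each array gave 6 to 8 higher and 3 or 4 lower members. WT liver at 28 weeks spread from 534.5 to 11170 for Dbp, which is wider than the line difference. The hours of tissue collection are not given in the sources used here.

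The core clock proteins act through the E-box, searched here as CACGTG. It was found in 5 of 18 clock members with a promoter against 6.86% of 27025 gene symbols, in 3 of the 11 with an unadjusted p under 0.05 and in 2 of the 7 others. It is shown in capitals for 3 genes whose sides differed, since Per1 and Ciart were higher in 9V/null and Cry1 lower.
Per1, chr11:69098756-69098815, plus strand: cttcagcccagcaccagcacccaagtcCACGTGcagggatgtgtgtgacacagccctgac
Ciart, chr3:95882240-95882299, minus strand: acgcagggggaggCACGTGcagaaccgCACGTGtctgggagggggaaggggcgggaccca
Cry1, chr10:85185082-85185141, minus strand: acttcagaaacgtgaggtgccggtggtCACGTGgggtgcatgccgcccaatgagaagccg

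The macrophage genes that the study followed in these mice were not called across both tissues at 4 weeks. Of the 12 measured genes that the study lists as regulated by interferon gamma, 2 were higher in 9V/null at an unadjusted p under 0.05. They were Nos2, the inducible nitric oxide synthase (1.95), and Msr1, a scavenger receptor (0.78), and 0 genes were lower. That is 16.7% higher against 3.30% of all genes, and 1 was higher after centring. Nos2 lay under 64 in 5 of the 4-week arrays, and with a floor of 64 its difference was 1.03. Msr1 had 4 probe sets, of which 2 had the sign of the leading one, with differences from −0.53 to 1.02. The signals of the 12 summed to 67618 and 63040 in 9V/null lung against 40397 and 33710 in 4L lung, without overlap, and to 41536 and 52049 against 50164 and 40789 in liver, where the lines overlapped. Of its 11 interleukin 4 genes 1 was higher (Ccl22, a chemokine, 1.48) and 2 lower (Retnla, a secreted product of alternatively activated macrophages, −1.26, and Cd163, the haemoglobin scavenger receptor, −0.78). The study chose these genes on arrays of the same series, so the counts are not independent of them. Ccl17, a chemokine of that list, was called in liver, at 227.5 and 246.6 in 9V/null against 16.5 and 30.7 (3.40). These 4L values lay near the floor of 16, and with a floor of 64 the liver difference was 1.89 and not called. In lung Ccl17 differed by −0.80 and was not called.

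Mmp12, the macrophage elastase, was at 407.8 and 464.1 in 9V/null lung against 384 and 262.4 in 4L lung, and at 75.9 and 17.3 against 57.1 and 33.1 in liver. The difference was 0.10 ± 0.50 at 4 weeks and 5.23 at 12 to 28 weeks, and the change of 5.13 passed the test (adjusted p = 8.35e-04). In lung 9V/null arrays reached 4735 to 10122 at the later ages. Gpnmb is a glycoprotein of lipid-laden macrophages and a plasma marker of Gaucher disease. In lung it was already apart, at 5577 and 5453 against 2410 and 1502 (1.54, not called). In 9V/null liver it was at 19.5 and 26.5, below the 175.3 and 298.7 of 4L liver, and by 12 weeks it had reached 5821 and 5874. The line difference of Gpnmb at 12 to 28 weeks was 4.45, a change of 5.35 (adjusted p = 2.25e-04).

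Cd68, a lysosomal macrophage protein, was at 8909 and 9882 against 6443 and 4418 in lung and at 2157 and 1831 against 2703 and 3230 in liver, so that the lines lay in opposite order in the 2 tissues. Its difference over both was 0.12 at 4 weeks and 1.19 later. Adgre1, which encodes F4/80, differed by −0.41. Ccl3, a chemokine, gave 0.15 at 4 weeks and 3.27 later, and Cxcl1, a neutrophil chemokine, 0.24 and 1.43. Of 19 lipid-storage macrophage genes 0 were called at 4 weeks across both tissues, where 25 of 18193 genes were higher and 67 lower. Gpnmb was called as lower in 9V/null liver (−3.33, adjusted p = 0.00664). With a floor of 64 that liver difference was −1.84 and not called. Over both tissues the leading probe set of Gpnmb gave −0.90 and its other one 0.12. At 12 to 28 weeks 6 of the 19 were called as higher, against 40 of all genes. At an unadjusted p under 0.05 the early arrays had 1 higher, Ctsk (cathepsin K, 1.40 ± 0.33), and 1 lower, Chil3.

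The leading probe sets of Psap, Scarb2 and Gba2, genes of sphingolipid handling and of the lysosome, were not called at 4 weeks. The line labels were not checked on the mutated gene, which was not analysed here. Psap, the precursor of the saposins, differed by 0.26, Scarb2, a lysosomal membrane protein, by 0.36, and Gba2, a non-lysosomal glucosidase, by 0.16 in its leading probe set and by −1.75 in its other one. In each of the 3 the standard error was 0.20 to 0.22. Of 30 glycosphingolipid genes 3 were lower (B4galnt1, St8sia1 and Sgpp1) and 0 higher, a share of 10% that is near the 7.83% of all genes, and of 26 lysosomal genes 3 were higher and 1 lower, against 3.30% and 7.83% of all genes. Lipa, the lysosomal acid lipase, was at 7850 and 8384 in 9V/null lung against 4701 and 3557, and at 19123 and 18041 against 12161 and 11102 in liver (0.83 ± 0.21 over the 8 arrays). Ppt1, a palmitoyl-protein thioesterase, differed by 0.73 at 4 weeks and by 0.91 later, when it was called (adjusted p = 3.08e-04). Ppt1 had 5 probe sets, of which 3 had the sign of the leading one, with 4-week differences from −1.37 to 0.73. Lipa had 3, of which 2 had that sign, from −0.39 to 1.06.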

How the data were processed

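The deposited table gave 1 signal intensity, on a linear scale, for each probe set and array, computed by the authors in GCOS (version 1.1 in the submitters' processing notes). The authors had scaled each array, and the mean of the values without the highest and lowest few percent was 1500.01 on every array. Of 45101 probe sets 64 Affymetrix controls were left out. Signals under 16, which were 5.52% to 10.1% of an array, were raised to 16 before taking log2, and groups were compared with limma 3.58.1 in R 4.3.3 (lmFit and eBayes, Benjamini-Hochberg over 45037 probe sets). The number of arrays limits the precision. Symbols came from the platform annotation, with 34945 probe sets of 1 symbol, 932 of several and 9160 of none. Where a gene had several probe sets, the leading one was that with the highest mean over the 8 arrays, and cross-hybridizing _x_at sets were used only in default of others. Named genes were the 10 highest and 10 lowest differences among called genes whose lines did not overlap, the genes of the study's macrophage lists, Cd68 and Adgre1, and up to 4 called members of each list. Since the 8 arrays alone called 0, this rule was applied to the fit over 39 arrays. The members, the 46 gene lists and the tests were chosen with earlier results of these data known. The fits were tested on simulated data. The study's own values came from another normalization (RMA) and were not used. Other floors, normalizations, thresholds, filters, fits, a replicate block and each array left out were tried as alternatives, and the fit over the 32 mutant arrays, the random block and the alternatives of the 39-array fit were added after seeing the data. Replicate numbers were not treated as pairing the arrays. Deviations of arrays with the same number correlated at 0.011 between the lines in lung and at −0.023 in liver, and between lung and liver at 0.0861 in 9V/null and −0.00794 in 4L. Eif2s3y was low in lung and liver of 9V/null replicate 1 and high in both of replicate 2, so these correlations cannot decide whether lung and liver shared mice.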

Additional observations from a re-analysis of the deposited data

Results flagged for a closer look

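At 4 weeks some genes differed between the lines by unequal amounts in lung and liver, by the test of that inequality over 39 arrays (lung minus liver, log2). Among genes whose lines did not overlap in lung or in liver, 2 were called above 0 and 4 below. Fam47e and Pramel13 were among those below. The values of the others were 4.53 for Ear3 (adjusted p = 2.43e-04), −3.94 for Gstp3 (adjusted p = 3.44e-04), −3.10 for Bco2 and 3.41 for Cd300c2 (both adjusted p = 0.00232). The 8 arrays alone called 0 such genes.

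Taken by the leading probe set, 11 genes passed the test of change over 32 arrays upward and 1 downward. Of the 11, 7 are given here with the line difference at 12 to 28 weeks minus that at 4 weeks. It was 3.45 for H2-Q2 (adjusted p = 4.95e-04), 2.54 for Zbtb16 (adjusted p = 0.00301), 2.08 for Bco2 (adjusted p = 9.85e-04), 1.97 for Cd300c2 (adjusted p = 0.00408) and 1.77 for Plaur (adjusted p = 0.00146), whose 4-week differences were below 0. It was 5.13 for Mmp12 (adjusted p = 8.35e-04) and 5.35 for Gpnmb (adjusted p = 2.25e-04), whose later differences were above 0.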

How the results depend on the processing

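The counts changed with the arrays that estimated the spread and with the FDR threshold. In place of 0 over the 8 arrays, both tissues gave 1 after median centring, 38 with an intensity trend, 12 at an FDR of 0.05, 126 over the 32 mutant arrays and 286 over all 39. Lung gave 4 with a trend, 14 over 32 arrays and 60 over 39, liver 3, 66 and 150, and lung minus liver 3 over 32 and 7 over 39. The count of 286 became 456 with a floor of 64 and 1070 at an FDR of 0.05, and ranged from 107 to 359 with each array left out, as did 60 in lung from 20 to 103 and 150 in liver from 52 to 273. At 12 to 28 weeks 124 became 261 at an FDR of 0.05, and 85 to 126 with an array left out. The change with age (29) became 92 with a floor of 64 and 223 at an FDR of 0.05 (9 to 64 with an array left out). In lung (6) it became 35 with either and 2 to 26 with an array left out, and in liver (17) 26, 72 and 9 to 99.

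With the replicate number as a block, 0 probe sets passed in the 8 arrays, 192 in place of 286 over 39 arrays, and 2 in place of 6 for the change in lung. With line and replicate as a random block 0 passed, and 17 at an FDR of 0.05.

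At an FDR of 0.05 over the 8 arrays 0 members of the interferon, clock, class II and macrophage lists passed. Clock members lower in 9V/null went from 4 to 2 over 39 and over 32 arrays. Macrophage markers went from 6 to 2 after centring, 12 over 39 arrays, 10 over 32 arrays or with a trend, and 2 to 7 with an array left out. The difference of Mmp12 turned to −0.44, −0.04 and −0.10 without 9V/null liver replicate 1, 4L lung replicate 2 and 4L liver replicate 2 (range −0.44 to 0.63), and that of Cd68 to −0.0151 without 4L lung replicate 2 (range −0.0151 to 0.257). Over the named genes, 1099 of the alternatives kept direction and call, 208 lost the call, 3 gained it and 4 reversed, and the cause was not tested.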

Other observations

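In lists of dividing cells and of the matrix a minority of genes were higher in 9V/null at 4 weeks and 0 were called. Of 37 cell cycle genes 5 were higher at an unadjusted p under 0.05 (3 after centring), against 3.30% of all genes, and 0 lower. Mki67, a marker of cycling cells, was at 2409 and 3128 in 9V/null lung against 1036 and 1263, and at 2442 and 1729 against 1137 and 625.8 in liver. Of 23 fibroblast and matrix genes 4 were higher (3 after centring) and 0 lower. Col1a1, a chain of type I collagen, was at 40880 and 50856 against 20617 and 20579 in lung, a difference of 1.15, with 0.86 in liver. Of 53 cytochrome P450 genes of families 2 to 4, 12 were lower and 3 higher, against 7.83% and 3.30% of all genes, and 1 (Cyp2c37) was called over both tissues. The median difference of these 53 genes was −0.69 in lung and 0.06 in liver, so the list as a whole was not lower in liver.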
